A study of Mus musculus with 4 samples.

Results

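Astrocytes of the posterior hindbrain were examined as 1 annotated cell type of a single-nucleus RNA-sequencing dataset. The members were the 4378 nuclei that passed the authors' quality filter and that the authors' table annotates as astrocytes, out of 39461 kept nuclei, and they fell into 11 of the authors' clusters (numbered 15, 16, 17, 18, 20, 21, 22, 36, 48, 52 and 54). A block of hindbrain around the area postrema and the nucleus of the solitary tract was taken from adult mice of 12 to 20 weeks and of both sexes, and 4 libraries were made from sorted nuclei with the 10x Genomics Chromium 3′ kit. The 2 control libraries are labelled WT, and by the study's breeding scheme the control mice carried both receptor alleles, hM3DGqfl/- and hM4DGifl/-, without the recombinases (AgRP-IRES-Cre-/- and POMC-Dre-/-). The 2 AgRP-Gq;POMC-Gi libraries came from mice with the same receptor alleles and with AgRP-IRES-Cre+/- and POMC-Dre+/-, so that an activating designer receptor was placed in AgRP neurons and an inhibitory one in POMC neurons. All mice of both groups received the receptor ligand clozapine-N-oxide (CNO) at 3 mg/kg and were killed 1 h later without food. Each group was 2 mice, which were pooled, and which mouse went into which library is not stated. The p-values below thus measure the spread between libraries, which may be technical in part. The 2 AgRP-Gq;POMC-Gi libraries also differed in their share of female nuclei, as given below. The recombinase alleles themselves and the response to CNO cannot be told apart. The comparison of the groups asks what astrocytes of the region around the dorsal vagal complex expressed 1 h after AgRP neurons were activated and POMC neurons were silenced together.

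Astrocytes take up glutamate and potassium from the space around synapses, are coupled by gap junctions, line vessels with end feet rich in the water channel Aqp4 and supply neurons with lactate and cholesterol. Grey matter holds bushy protoplasmic astrocytes, and white matter and the brain surface hold fibrous astrocytes with much of the filament protein Gfap. Astrocytes also carry the glucocorticoid receptor, and in many tissues adrenal steroids switch on a shared set of genes through it, among them *Fkbp5*, *Tsc22d3*, *Zbtb16* and *Sgk1*.

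Levels are given as CPM, that is UMIs (unique molecular identifiers, a count of captured RNA molecules) scaled to the same total of 1000000 in the astrocytes, or in one of their clusters, of each library. The astrocytes of a library held 3347918 to 4620431 UMIs, with a median of 3010.5 to 4008 UMIs per nucleus. The libraries differed in ways that the groups do not explain. *Xist* stood at 48.2 CPM in AgRP-Gq;POMC-Gi library 2 and at 745 to 1357 CPM in the other libraries. The Y-linked *Uty* stood at 191 CPM in that library and at 72.0 to 109 CPM in the others. That library thus held a smaller share of female nuclei, and the part of sex in the group differences was not tested. The choroid plexus gene *Ttr*, read here within astrocytes, reached 2689 CPM in control library 2 and 1637 CPM in AgRP-Gq;POMC-Gi library 2 but 3.90 and 18.5 CPM in the other libraries, where few choroid plexus nuclei were kept. *Malat1*, a nuclear non-coding RNA, took 145128 CPM in AgRP-Gq;POMC-Gi library 1 and 94484 to 106511 CPM in the others. Only 1 astrocyte barcode was shared between any 2 libraries. Among the markers of other cells read within astrocytes, the 8 oligodendrocyte markers summed to 685 and 786 CPM in the control libraries against 449 and 591 CPM in AgRP-Gq;POMC-Gi, which do not overlap. The 8 neuron markers summed to 430 to 624 CPM with overlapping groups. The endothelial and ependymal markers stayed at 31.3 CPM or less in each library.

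The defining markers were abundant where the annotation places them. *Aqp4* averaged 390 ± 63.3 CPM in astrocytes (mean ± SD, n = 4 libraries) against 10.0 ± 0.499 CPM in oligodendrocytes and 3.81 ± 0.500 CPM in neurons. The glutamate transporter *Slc1a2* averaged 3106 ± 225 CPM, with a UMI in 98.4% of astrocyte nuclei, against 37.4 ± 9.54 CPM in oligodendrocytes, where 8.81% of nuclei had one. *Gja1*, which encodes the gap junction protein connexin 43, averaged 362 ± 14.4 CPM and was found in 65.2% of nuclei. *Gfap* averaged only 99.7 ± 18.8 CPM in 13.4% of nuclei, and the tanycyte-like cells of the same libraries had more of it, at 332 ± 89.8 CPM.

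Astrocytes made up 11.3% and 10.8% of the kept nuclei in the control libraries against 10.7% and 11.5% in AgRP-Gq;POMC-Gi. The group means were 11.1% ± 0.394 and 11.1% ± 0.578 (SD, n = 2), and an exact two-sided permutation test gave p = 1. Among the nuclei that were not neurons, the share was 15.2% and 14.8% against 17.3% and 18.2%, with fewer neurons in the control libraries (2470 and 2736) than in the others (3696 and 3637). These groups do not overlap, but with 2 libraries a group the exact permutation p cannot go below 0.333.

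The 11 clusters ranged from 631 nuclei (cluster 15) to 149 nuclei (cluster 54). Clusters 15, 16, 17, 18, 20, 21 and 22 each held 10.3% to 14.4% of all astrocytes, and clusters 36, 48, 52 and 54 held 3.4% to 4.29% each. Cluster 20 took 5.71% and 8.95% of the astrocytes in the control libraries against 15.4% and 15.8% in AgRP-Gq;POMC-Gi. Cluster 22, led by the metabotropic glutamate receptor gene *Grm5*, took 11.9% and 12.4% against 8.45% and 8.53%. The library values of the groups did not overlap in 5 of the 11 clusters (16, 20, 22, 52 and 54), each at the smallest p the exact permutation test allows, 0.333. In 2 of these the groups nearly met. Cluster 52 took 3.54% and 4.52% in the control libraries against 2.30% and 3.48%, and cluster 54 took 2.18% and 3.51% against 3.55% and 4.35%. In clusters 16, 20 and 54 a leading gene was itself called between the groups (*Nkx6-2*, *Hes5* and *Ntng1*, and *Calcrl*, described below), so their sizes are given as values and not read as a change in cell numbers. AgRP-Gq;POMC-Gi library 2 stood apart in clusters 15 and 17, with 21.7% of its astrocytes in cluster 15 against 11% to 12.8% in the other libraries, and 5.57% in cluster 17 against 14.1% to 15.4%.

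**Figure D1:**
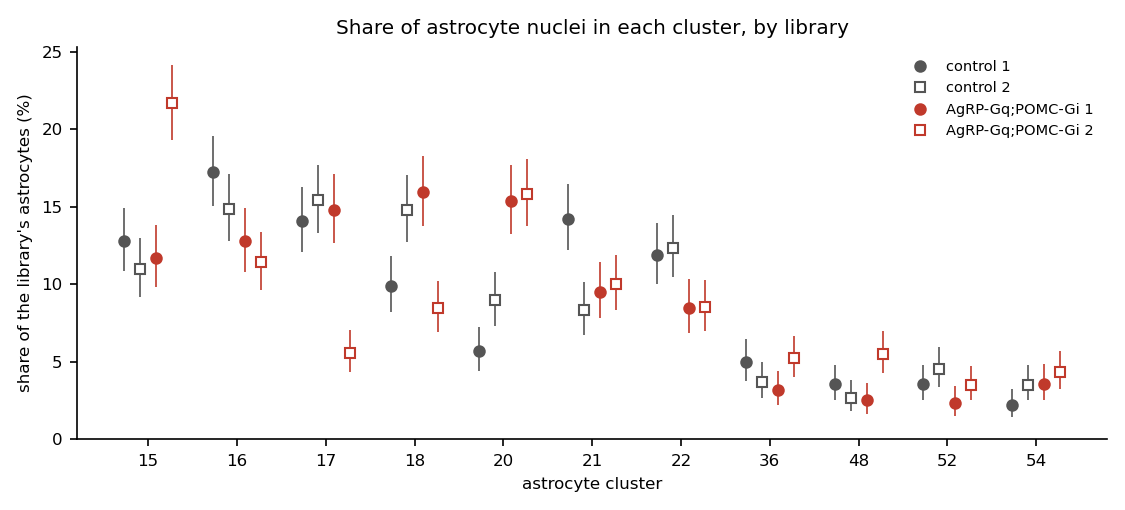
Share of each library's astrocytes in each of the 11 clusters, in percent, with 95% binomial confidence intervals (exact Clopper-Pearson) that cover counting error only; black symbols are the 2 control libraries and red symbols the 2 AgRP-Gq;POMC-Gi libraries. Cluster 20 lies at 5.71% and 8.95% in the control libraries and at 15.4% and 15.8% in the others.

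Because the clusters were made from the expression of these same nuclei, the genes that lead a cluster are described here without a test. The clearest outlier was cluster 48. *Gfap* reached 1618 ± 339 CPM there against a mean of 72.6 CPM over the other clusters, and 91.1% of its nuclei had a *Gfap* UMI. The long RNA gene *6330411D24Rik* reached 2897 ± 474 CPM against 37.0 CPM, and *Myoc*, which encodes the secreted protein myocilin, 214 ± 101 CPM against 0.174 CPM. With *Gfap* and *Myoc* among its leading genes, the highest *Aqp4* level of the clusters (1406 ± 312 CPM), and a summed level of the 12 fibrous astrocyte markers of 6867 CPM against 890 to 3574 CPM elsewhere, cluster 48 was called fibrous astrocyte-like. It also had the lowest summed level of the 11 protoplasmic astrocyte markers, 8380 ± 397 CPM, where cluster 17 had the highest, 31422 ± 1045 CPM.

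Cluster 54 lay between cluster 48 and the rest on both lists, at 3574 ± 667 CPM for the fibrous and 12536 ± 940 CPM for the protoplasmic markers. Its leading genes included those of the metabotropic glutamate receptor *Grm8* (1396 ± 387 CPM against 87.0 CPM in the other clusters), the prokineticin receptor *Prokr2* (104 ± 50.8 against 4.45 CPM), the zinc finger transcription factor *Zic4* (240 ± 36.3 against 22.7 CPM) and *Calcrl*, the receptor subunit for CGRP and adrenomedullin (228 ± 74.5 against 23.7 CPM). *Gpc5*, a glypican of the cell surface, separated both clusters from all others, at 470 CPM (48) and 1484 CPM (54) against 5124 to 11775 CPM. The water channel gene *Aqp4* did the reverse, at 1406 CPM (48) and 915 CPM (54) against 249 to 389 CPM elsewhere. Genes of cholesterol synthesis and lipoproteins, 16 in the list, were highest in clusters 54, 48 and 20, with sums of 5750, 5377 and 4841 CPM, and the remaining clusters had 2447 to 3654 CPM. Over the 11 clusters, the genes whose levels ran most like *Gfap* among 7481 compared were *Pofut1*, *Agrn*, *Cux2* and *Gm49267* (Spearman rho 0.927) and *6330411D24Rik* (0.918). The 11 points share the same libraries, so these are descriptions.

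The larger clusters differed from each other in receptors, transporters and enzymes. Cluster 15 was led by the heparan sulfate enzyme gene *Hs6st3*, at 295 ± 44.1 CPM against 81.4 CPM in the others. Cluster 17 was led by *Cyp26b1*, which encodes an enzyme that breaks down retinoic acid (369 ± 78.9 against 77.0 CPM), and cluster 18 by the phosphodiesterase gene *Pde1c* (362 ± 22.2 against 88.0 CPM). Cluster 20 had *Nnat*, a small membrane protein gene, at 1136 ± 173 CPM against 257 CPM, the Notch target *Hes5* at 130 ± 51.7 against 29.9 CPM, and *Ntng1*, which encodes netrin-G1, at 262 ± 88.8 against 71.6 CPM. Cluster 21 was led by the AMPA receptor auxiliary gene *Shisa6* (259 ± 39.1 against 40.2 CPM) and cluster 36 by the Notch coactivator gene *Maml3* (130 ± 28.8 against 52.2 CPM). *Grm5* was highest in cluster 22, at 806 ± 89.7 CPM, and lowest in clusters 48, 54 and 20, at 36.8, 44.4 and 63.5 CPM. The AMPA receptor gene *Gria2* led in clusters 18 and 22, at 1287 ± 112 and 1248 ± 128 CPM. Of the 55 leading genes, 5 per cluster, 47 were highest in their own cluster by CPM. After each nucleus was thinned to 800 UMIs, 43 of the 55 were highest there by the share of nuclei with a UMI.

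Position genes divided the clusters further. *Pax3*, a dorsal neural tube transcription factor, was highest in clusters 54 (370 CPM), 48 (351 CPM), 15 (222 CPM) and 18 (196 CPM) and lowest in clusters 16 (29.3 CPM) and 21 (28.6 CPM). The homeobox gene *Nkx6-2*, which marks more ventral progenitors in the embryo, was highest in clusters 16 (94.5 CPM) and 20 (85.5 CPM) and stood at 3.60 CPM in cluster 22. *Zic1* was highest in clusters 54 and 48 (199 and 103 CPM) and lowest in cluster 21 (2.52 CPM). The hindbrain gene *Hoxa3* lay between 32.2 and 50.6 CPM in all 11 clusters, with an SD over libraries of up to 23.4 CPM (cluster 18).

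Cluster 52 was not given a name. It was led by neuronal adhesion and signalling genes, *Cntnap2* (1294 ± 732 CPM against 61.1 CPM in the other clusters), *Lingo2*, *Galntl6*, *Nrg3* and *Lrrtm4*. Its neuron markers summed to 3228 ± 762 CPM, where the other clusters had 256 to 873 CPM, and its oligodendrocyte markers to 2676 ± 603 CPM against 495 to 890 CPM. It also had the fewest UMIs per nucleus (median 2330.5), the highest mitochondrial share (0.809%) and the highest summed heat shock level, 2968 ± 143 CPM against 855 to 1514 CPM. The part of mixed droplets in this cluster was not tested.

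**Figure D2:**
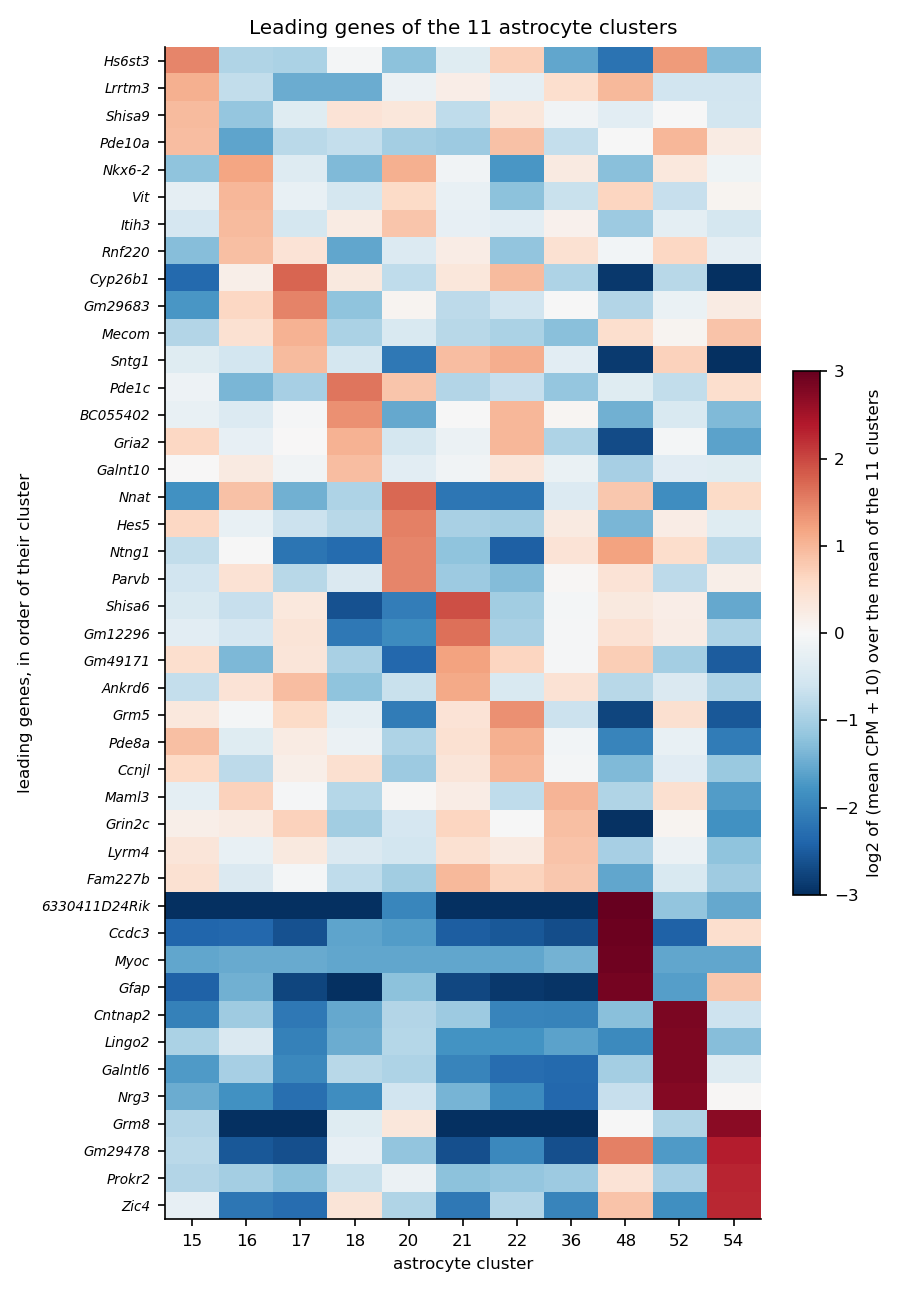
Mean CPM over the 4 libraries of the first 4 leading genes of each astrocyte cluster (rows, in order of their cluster; genes leading 2 clusters appear in 1 row), as the log2 of the level plus 10 CPM over the mean of the 11 clusters plus 10 CPM, with colours that stop at 3 in either direction. The rows of clusters 48, 52 and 54 show the strongest contrast, led by *Gfap* and *Myoc* in cluster 48, *Cntnap2* in cluster 52 and *Grm8* in cluster 54, while the rows of clusters 15 to 36 differ by smaller steps.

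Between the groups, UMIs summed over all astrocytes of a library were compared with edgeR's quasi-likelihood test over the 8462 genes found in at least 5% of astrocyte nuclei. At an adjusted p under 0.05, 53 genes (0.626% of those tested) were called, 22 higher (0.260%) and 31 lower (0.366%) in AgRP-Gq;POMC-Gi. The libraries of the groups did not overlap for any of the 53, which was also true of 37.4% of all genes tested. The median log2 difference over all genes tested was -0.002. Because the groups of the 53 do not overlap, their direction could hardly change when 1 library was left out. Each of the 53 genes kept its direction when any 1 library was left out, and 29 were called in each of these 4 fits. Without control library 1, 34 of the 53 were called, and without control library 2, 48 were. Without AgRP-Gq;POMC-Gi library 2, the one with low *Xist*, 44 of the 53 were called, and without AgRP-Gq;POMC-Gi library 1, the one with high *Malat1*, 46 were called. For 9 of the 53 the group with the lower level was itself under the 5% of nuclei that the filter asks. They were tested only through the other group, so their calls are no support for a difference. Among the higher genes they were *Calcrl*, *Hunk* and *Fam181a*. Among the lower ones they were *Gm22146*, *Gm29683*, *Dclk3*, *Tekt4*, *Gm43091* and *Fbxo31*. In these summed values, fewer cells of a type and less RNA per cell cannot be told apart.

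*Fkbp5* (ENSMUSG00000024222, minus strand of chr17:28399094-28517527 in GRCm38), a co-chaperone that lowers the glucocorticoid receptor's affinity for its hormone and is itself induced by it, had the lowest p. It stood at 275 and 178 CPM in the control libraries against 24.5 and 28.9 CPM in AgRP-Gq;POMC-Gi. Both AgRP-Gq;POMC-Gi libraries were far below both control libraries, which themselves differed. *Fkbp5* fell by 3.04 ± 0.205 on the log2 scale (estimate ± SE, adjusted p = 8.65e-05), and its largest adjusted p with 1 library left out was 7.89e-04. *Gm22146* (as the files name ENSMUSG00000117084), an antisense gene that lies inside *Fkbp5* on the opposite strand, stood at 49.8 and 30.1 CPM against 5.38 and 2.54 CPM and fell by 3.34 ± 0.360 (adjusted p = 0.00389). *Gm22146* had a UMI in 12.5% of control nuclei and in 1.23% of AgRP-Gq;POMC-Gi nuclei. It passed the filter only through control, so its call is no support for a difference. Reads of *Fkbp5* and *Gm22146*, which overlap, may not be fully separable.

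*Zbtb16*, a zinc finger repressor, stood at 278 and 270 CPM against 133 and 126 CPM and fell by 1.04 ± 0.124 (adjusted p = 0.00603). *Tsc22d3*, which encodes the glucocorticoid-induced leucine zipper, stood at 197 and 198 CPM against 119 and 108 CPM and fell by 0.76 ± 0.127 (adjusted p = 0.0224). For both genes the libraries within a group lay close together and the groups were far apart. These were the 3 members called among the 14 of 19 glucocorticoid-induced genes abundant enough to be tested, and none was called higher. Over all genes tested 0.366% were called lower. The median log2 difference of the 14 was -0.46 against -0.002 over all genes. The list was chosen with earlier results of these data known, so these values describe it and do not test it. The kinase gene *Sgk1* stood at 21 and 27.3 CPM against 11.1 and 15 CPM, with a log2 difference of -0.84 that missed the threshold (adjusted p = 0.112). *Cdkn1a*, a cell cycle inhibitor, stood at 53.2 and 46.1 CPM against 31.4 and 23.3 CPM (log2 difference -0.83, adjusted p = 0.0889), and the transcription factor *Klf15* at 48.7 and 40.1 CPM against 27.8 and 26.4 CPM (-0.68, adjusted p = 0.116). The list did not move as one, since the metallothionein *Mt1*, the clock gene *Per1* and *Klf9* had overlapping groups and log2 differences of -0.14, 0.02 and -0.09. Only AgRP-Gq;POMC-Gi library 2 was low in *Mt1*, at 488 CPM against 736 to 824 CPM in the other libraries.

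Promoters of the glucocorticoid-induced genes and of the Notch target *Hes5* are shown because their genes carry the groups of calls described here. The sequences are from RefSeq (build GRCm38.p6), run from 250 bases before to 50 bases after a gene start on the gene's own strand, and were searched on both strands for AGAACA, the core arm of a glucocorticoid receptor element, in the *Fkbp5* and *Tsc22d3* windows and for GTGGGAA, the Rbpj motif, in the *Hes5* window, with matches in capitals. *Fkbp5*, chr17:28486100-28486399, minus strand, held no AGAACA. This window lies inside the *Fkbp5* span given above, and the start at the far end of that span was not searched. One of 3 *Tsc22d3* starts, chrX:140600473-140600772, minus strand, held 1 match on the opposite strand, beginning 185 bases before the start. *Hes5*, chr4:154960673-154960972, plus strand, held 2 matches, 226 bases (opposite strand) and 83 bases (same strand) before the start. Of 32851 windows of this length, 19.0% held AGAACA and 6.38% GTGGGAA, so a match is a description and not a site. *Hes1* and *Zbtb16* had no entry in the table used.
Fkbp5: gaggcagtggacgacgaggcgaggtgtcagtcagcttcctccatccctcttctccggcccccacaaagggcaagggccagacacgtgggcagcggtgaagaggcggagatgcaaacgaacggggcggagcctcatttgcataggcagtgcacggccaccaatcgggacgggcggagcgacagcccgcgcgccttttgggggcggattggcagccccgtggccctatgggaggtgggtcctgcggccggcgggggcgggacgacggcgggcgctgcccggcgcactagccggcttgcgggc
Tsc22d3: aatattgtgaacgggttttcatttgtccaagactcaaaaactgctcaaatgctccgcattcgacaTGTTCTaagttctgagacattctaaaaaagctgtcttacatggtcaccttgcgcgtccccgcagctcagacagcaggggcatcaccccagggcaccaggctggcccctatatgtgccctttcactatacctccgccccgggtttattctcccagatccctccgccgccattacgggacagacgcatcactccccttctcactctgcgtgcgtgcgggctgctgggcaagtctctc
Hes5: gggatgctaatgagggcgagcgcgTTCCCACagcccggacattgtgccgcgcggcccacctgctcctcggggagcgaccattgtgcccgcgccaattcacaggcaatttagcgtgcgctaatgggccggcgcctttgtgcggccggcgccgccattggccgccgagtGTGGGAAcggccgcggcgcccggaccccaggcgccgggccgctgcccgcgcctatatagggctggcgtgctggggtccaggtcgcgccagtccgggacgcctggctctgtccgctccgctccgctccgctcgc

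Other genes were lower as well. *Slc24a4*, a potassium-dependent sodium-calcium exchanger, stood at 259 and 233 CPM against 86.6 and 103 CPM and fell by 1.33 ± 0.118 (adjusted p = 7.48e-04). The long non-coding RNA gene *4930545L23Rik* stood at 448 and 511 CPM against 195 and 167 CPM and fell by 1.35 ± 0.158 (adjusted p = 0.00603). In both genes every control library was more than 2 times above every AgRP-Gq;POMC-Gi library. *Galnt18*, which starts mucin-type sugar chains, stood at 634 and 505 CPM against 285 and 262 CPM and fell by 1.01 ± 0.167. The other 6 of the 10 largest decreases were *Gm29683* (-1.63), *Tekt4* (-1.38), *Mthfd2* (-1.33), *Gm43091* (-1.31), *Dclk3* (-1.25) and *Smim3* (-1.21). *Mthfd2* encodes a mitochondrial folate enzyme and *Dclk3* a kinase. Of these *Gm29683*, *Tekt4*, *Gm43091* and *Dclk3* passed the filter only through control, so their calls are no support for a difference. *Tekt4* was not called without AgRP-Gq;POMC-Gi library 2 (adjusted p = 0.0609), nor was *Gm43091* without that library (0.0511) or without control library 1 (0.0501). The nuclear receptor corepressor *Hr* (-1.10), the survival factor *Bcl2l1* (-0.90), the synaptic scaffold *Homer2* (-0.91), the ferroxidase *Heph* (-0.82), the kinase genes *Prkcd* (-0.74) and *Prkcb* (-0.59) and the forkhead factor *Foxo3* (-0.59) were also called lower on the log2 scale. Of these *Prkcd*, *Prkcb* and *Foxo3* were not among the 29 genes called in each fit with 1 library left out. The oligodendrocyte markers, lower in summed level in the same libraries, had a median log2 difference of -0.56 over the 6 of 8 tested, and none was called. Their part in the lower genes was not tested.

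Among the genes that rose were targets of Notch signalling, through which neighbouring cells hold glia and progenitors in their state. *Hes1* stood at 55.6 and 54.1 CPM in the control libraries against 122 and 96.4 CPM in AgRP-Gq;POMC-Gi, and rose by 1.04 ± 0.163 on the log2 scale (adjusted p = 0.0197). *Hes5* stood at 27.3 and 28.1 CPM against 45.1 and 63.9 CPM and rose by 1.02 ± 0.158 (adjusted p = 0.0193). Both encode repressors of neuronal differentiation, and for both the lower AgRP-Gq;POMC-Gi library was above the higher control library. They were the 2 called of 11 tested in a list of 14 Notch and Id genes. The median log2 difference of the 11 was 0.36. Of all genes tested, 0.260% were called higher, and their median was -0.002. This list too was chosen with earlier results known, so these values describe it and do not test it. *Id3*, an inhibitor of basic helix-loop-helix factors, stood at 64.9 and 75.7 CPM against 89.3 and 142 CPM (0.76, adjusted p = 0.0669), the receptor *Notch1* at 59.3 and 53.9 against 65.1 and 71.0 CPM (0.31, adjusted p = 0.399), and the DNA-binding partner *Rbpj* overlapped between groups (-0.02).

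The largest rise was that of *Calcrl*, at 10.8 and 15.8 CPM against 27.2 and 35.0 CPM (1.28 ± 0.207, adjusted p = 0.0204). It had a UMI in 81 of 2187 control nuclei (3.7%) and in 148 of 2191 AgRP-Gq;POMC-Gi nuclei (6.75%). It thus passed the filter only through AgRP-Gq;POMC-Gi, so its call is no support for a difference. *Fabp7*, a fatty acid binding protein of radial glia and astrocytes, stood at 29.4 and 29.3 CPM against 50.5 and 62.9 CPM and rose by 0.99 ± 0.141. *Slc38a1*, a glutamine transporter, stood at 66.9 and 69.7 CPM against 108 and 138 CPM and rose by 0.89 ± 0.119 (adjusted p = 0.0102). Others among the 10 largest rises were the kinase *Hunk* (1.18), *Fam181a* (1.09), the manganese exporter *Slc30a10* (1.05), *Efhd1* (0.95), *Tmem100* (0.94) and *Cpne2* (0.94). Of these *Hunk* and *Fam181a* passed the filter only through AgRP-Gq;POMC-Gi, so their calls are no support for a difference. *Nkx6-2* (0.90), *Ntng1* (0.89), *A2m*, which encodes a protease inhibitor (0.81), and the potassium channel *Kcnj3* (0.71) were also called higher. With 1 library left out, the largest adjusted p was above the threshold for *Hunk* (0.106), *Fam181a* (0.0982), *Slc30a10* (0.105), *Efhd1* (0.0948) and *Nkx6-2* (0.0625), and *Ntng1* and *Kcnj3* were also not called in each of these fits.

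Many of the genes called higher were most abundant in clusters 20, 48 and 54. Of the 22 genes called higher, 19 had their largest cluster mean in cluster 20, 48 or 54, against 7 of the 31 called lower and 43.7% of all 8462 genes tested. Clusters 20 and 54 held larger shares of the astrocytes in both AgRP-Gq;POMC-Gi libraries than in either control library. For cluster 54 the margin was narrow (3.55% against 3.51% in the nearest libraries). Without clusters 48 and 54, 48 of the 53 genes were called. *A2m* was not called (0.49, adjusted p = 0.227), and *Calcrl* was under the filter and not tested. When each library was given the same cluster make-up, an alternative (like the one without clusters 48 and 54) added after the data were seen, 47 of the 53 genes were still called. The 6 that were not were all among the higher ones: *Calcrl* (0.69, adjusted p = 0.125), *Ntng1* (0.52, adjusted p = 0.109), *Kcnj3* (0.33, adjusted p = 0.207), *Pgm5* (0.48, adjusted p = 0.169), *2610307P16Rik* (0.50, adjusted p = 0.142) and *Slc30a10* (0.68, adjusted p = 0.0858). *Hes1* (1.04, adjusted p = 0.00221) and *Hes5* (0.69, adjusted p = 0.0281) stayed called, and every gene called lower did.

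**Figure D3:**
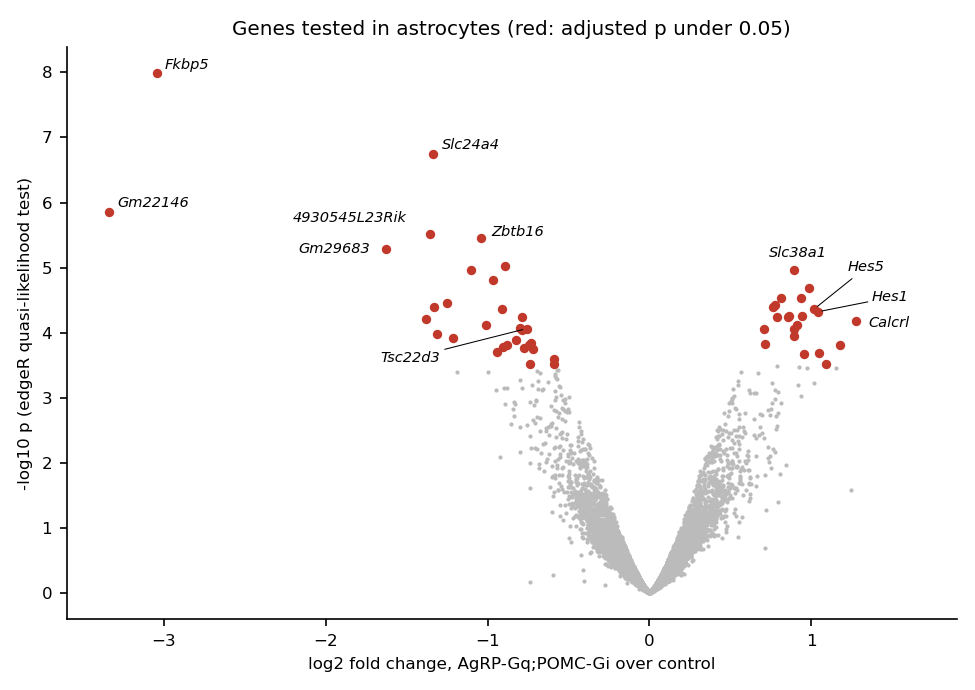
Each of the 8462 genes tested in astrocytes by its log2 fold change (AgRP-Gq;POMC-Gi over control, horizontal axis) and the -log10 of its unadjusted p from edgeR's quasi-likelihood test (vertical axis), with genes at an adjusted p under 0.05 in red. *Fkbp5* and the antisense gene *Gm22146* lie far to the left at -3.04 and -3.34, and the 22 genes called higher reach up to 1.28.

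**Figure D4:**
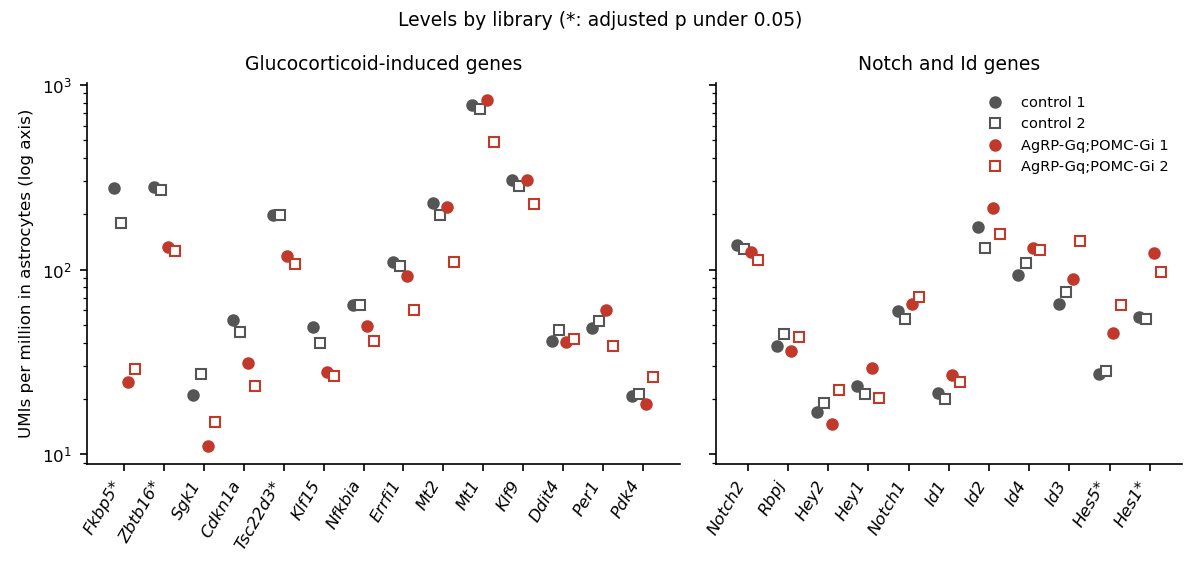
CPM in astrocytes of each library (log axis) for the tested members of the glucocorticoid-induced list and of the Notch and Id list, in order of their log2 difference, with an asterisk on genes at an adjusted p under 0.05. *Fkbp5*, *Zbtb16* and *Tsc22d3* have both red symbols below both black ones, *Mt1* and *Per1* have overlapping groups, and *Hes1* and *Hes5* have both red symbols above both black ones.

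At a rate of 0.626% over all genes tested, lists of 10 to 25 genes would seldom hold a call, and those of the main astrocyte tasks held none. None of the 4 defining markers was called, with *Aqp4* at 353 and 320 CPM against 446 and 441 CPM (log2 difference 0.44, adjusted p = 0.242) and *Gfap* at 116 and 73.7 CPM against 98.6 and 111 CPM (0.18, adjusted p = 0.799). No member was called among 25 astrocyte identity genes (median 0.03), 10 transmitter uptake genes (0.15), 12 potassium, water and gap junction genes (0.01), 12 tested of 15 genes of glycogen, lactate and fuel use (0.04), 15 tested of 16 genes of cholesterol and lipoproteins (0.08) or 17 tested of 25 receptors (0.06). Among the cholesterol genes *Cyp51*, a sterol demethylase, came nearest to the threshold, at 67.1 and 69.2 CPM against 93.8 and 102 CPM (0.57, adjusted p = 0.0540). Of the circadian clock genes, the 10 that peak with *Dbp* and *Per* had a median of -0.20 and the 4 tested of 5 that peak with *Arntl* had 0.21, with no call in either list. The 8 tested heat shock genes (median -0.11), 12 tested of 16 matrix and synaptogenic genes (0.02), 11 protoplasmic markers (0.03) and 3 tested of 20 reactive astrocyte genes (0.10) had no call. In the fibrous (8 tested, median 0.11), Bergmann glia (7 tested, 0.27) and hindbrain position (15 tested, 0.39) lists 1 gene each was called higher, *Slc38a1*, *A2m* and *Nkx6-2* in that order, all named above.

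Within the clusters, the same test was made over 7643 to 8950 genes in each cluster, 91635 tests in all. It gave 118 calls (0.129%) on 73 genes, 37 higher (0.0404%) and 81 lower (0.0884%). Cluster 18 had the most, 31 (0.380% of the genes tested there), followed by cluster 15 with 17 (0.199%), clusters 16 and 17 with 14 each (0.166% and 0.164%), cluster 20 with 13 (0.168%), clusters 22 and 54 with 10 each (0.117% and 0.131%), cluster 21 with 5 (0.0577%) and cluster 36 with 4 (0.0473%). Clusters 48 and 52 had no call by edgeR or DESeq2, with 390 and 355 genes at an unadjusted p under 0.05. Of the 118 calls, 59 were on 23 genes that were also called over all astrocytes, and 18 genes were called in at least 2 clusters. The 17 calls of cluster 15 included the Y-linked *Ddx3y*. It stood at 6.29 and 27.7 CPM in the control libraries against 50.8 and 83.7 CPM in AgRP-Gq;POMC-Gi (adjusted p = 0.0196). Over all astrocytes 6 sex-linked genes were tested and 0 were called. DESeq2 gave 24 calls over the 11 clusters, so most of the calls in single clusters depend on the tool.

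*Fkbp5* was called lower in 8 clusters (15, 16, 17, 18, 20, 21, 22 and 36) and had the lowest p in 7 of them. In cluster 20, AgRP-Gq;POMC-Gi held 7 and 5 UMIs of it over 160 and 182 nuclei. *Fkbp5* passed the filter there only through control, so that call is no support for a difference. Both AgRP-Gq;POMC-Gi libraries were below both control libraries in 11 of 11 clusters, where 32.9% (cluster 52), 33.3% (cluster 48), 34.7% (cluster 54) and up to 38.4% (cluster 18) of all genes tested had groups that do not overlap. Its control level was highest in cluster 21 (390 and 208 CPM) and cluster 22 (353 and 259 CPM) and lowest in cluster 54 (107 and 39.9 CPM), while AgRP-Gq;POMC-Gi lay between 4.62 and 49.8 CPM in every cluster. The log2 difference ran from -3.34 in cluster 15 to -1.82 in cluster 52. In the 3 smallest clusters, 48, 52 and 54, it was not called (adjusted p = 0.0772, 0.912 and 0.636), and whether it differs there from the other clusters was not tested.

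*Slc24a4* was called lower in 7 clusters, *4930545L23Rik* in 7, *Zbtb16* in 5 and *Galnt18* in 4. The groups did not overlap in 11 of 11 clusters for *Slc24a4*, *4930545L23Rik* and *Zbtb16*, and in 10 of 11 for *Galnt18*. *Hes1* was called in cluster 22, where it stood at 58.2 and 59.6 CPM in the control libraries against 149 and 143 CPM (1.37 ± 0.258, adjusted p = 0.0185). Its groups did not overlap in 10 of 11 clusters, cluster 52 being the exception, beside the 32.9% to 38.4% of genes above. It was not called in the other 10. *Hes5* was called in 0 of the 9 clusters that tested it, with log2 differences from -0.03 to 1.98. Its groups did not overlap in 4 of 11 clusters, which is near that share of genes. *Tsc22d3* was called in 0 of 11 clusters, and its groups did not overlap in 9 of 11. *Nkx6-2* was called in cluster 16, at 46.9 and 58.5 CPM against 134 and 138 CPM (1.45). *Gfap* was called lower in cluster 16 alone, at 117 and 95.1 CPM against 34.2 and 44.7 CPM (-1.36, adjusted p = 0.0170). The call was lost with DESeq2 (adjusted p = 0.9996), without TMM factors (0.0826) and without AgRP-Gq;POMC-Gi library 1 (0.270) or 2 (0.115). In the fibrous astrocyte-like cluster 48 *Gfap* stood at 1907 and 1354 CPM against 1915 and 1297 CPM.

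Also called lower, and among the 3 genes with the lowest p in a cluster, were *Efr3b* in cluster 15, *Gm29683* in cluster 16, *Nkain2* in clusters 20 and 54, and *St3gal4*, a sialyltransferase gene, in cluster 36. *Malat1* was called in 3 clusters, among the 3 lowest p values in cluster 17, and AgRP-Gq;POMC-Gi library 1 was high in it throughout. *Pde10a*, a phosphodiesterase gene that was a leading gene of cluster 15, was called higher there, at 86.4 and 76.8 CPM against 141 and 295 CPM (1.49 ± 0.240, adjusted p = 0.00307). Without AgRP-Gq;POMC-Gi library 2, which had 21.7% of its astrocytes in cluster 15, the log2 difference was 0.87 (adjusted p = 0.151), and the call was also lost without control library 2 (adjusted p = 0.895) and with the replicate number as a block (adjusted p = 0.282). None of these cluster calls (*Hes1* in 22, *Nkx6-2*, *Gfap* and *Gm29683* in 16, *Efr3b* and *Pde10a* in 15, *Malat1* in 17, *Nkain2* in 20 and *St3gal4* in 36) was kept without control library 1 (adjusted p = 0.113 to 0.910 outside cluster 17, and 0.989 for *Malat1*).

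**Figure D5:**
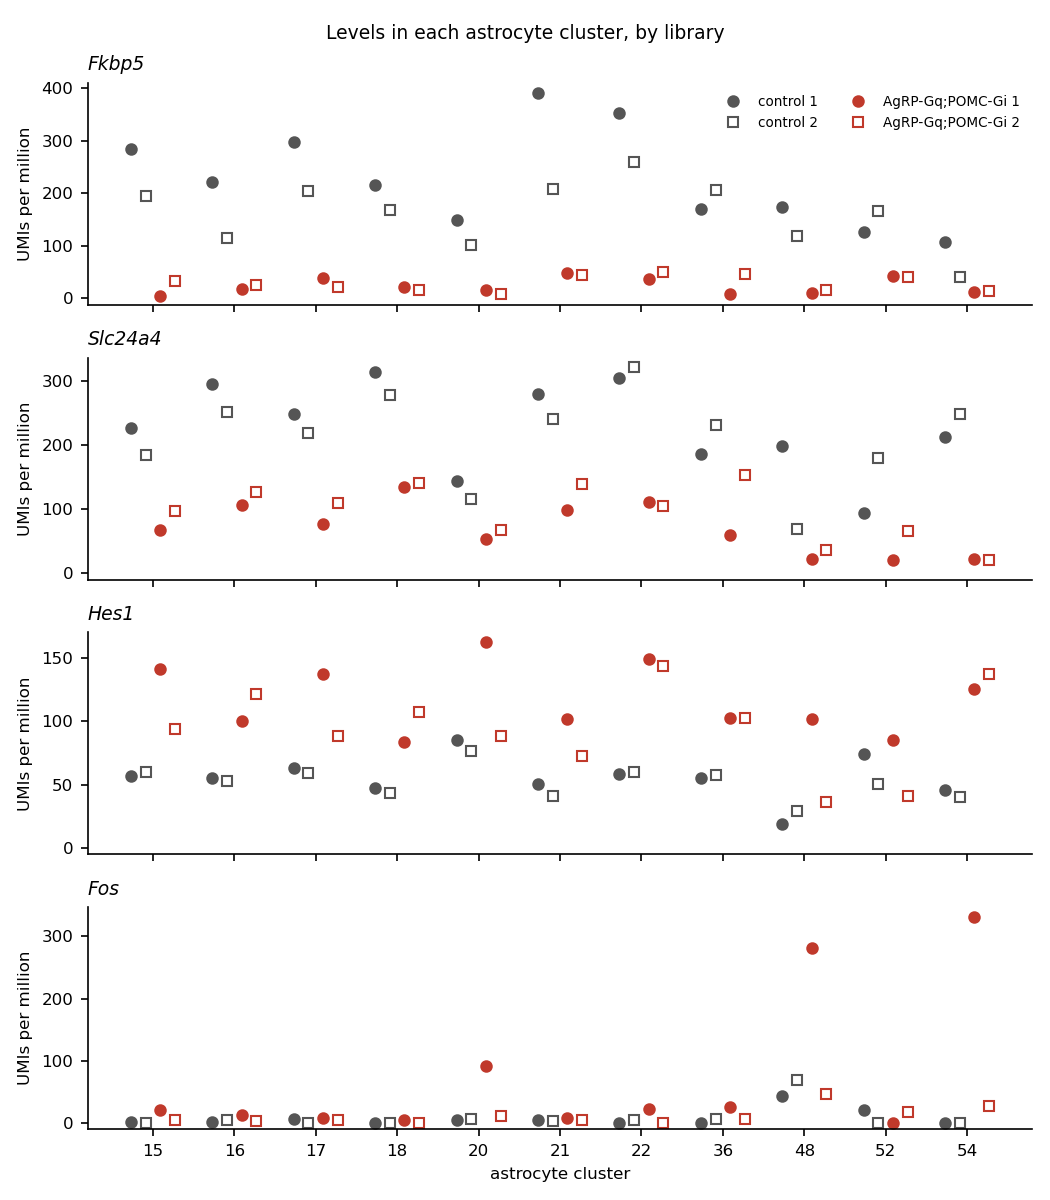
CPM of *Fkbp5*, *Slc24a4*, *Hes1* and *Fos* in each astrocyte cluster (horizontal axis) by library, black for control and red for AgRP-Gq;POMC-Gi. The red symbols lie below the black ones in all 11 clusters for *Fkbp5* and *Slc24a4*, above them in 10 of 11 for *Hes1*, and the high *Fos* values in clusters 20, 48 and 54 belong to AgRP-Gq;POMC-Gi library 1.

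Immediate early genes, which are switched on within minutes of strong stimulation, were rare in astrocytes. *Fos* counted 19 and 15 UMIs for control and 126 and 30 UMIs for AgRP-Gq;POMC-Gi, found in 16, 10, 65 and 24 nuclei, which is below the abundance needed for the test over all astrocytes. Of the study's 10 immediate early genes 2 were tested, and neither *Jun* (14.3 and 18 CPM against 37.6 and 17 CPM, adjusted p = 0.445) nor *Homer1* (adjusted p = 0.796) was called. *Jun* was called higher in cluster 17, where it stood at 11.2 and 17.2 CPM against 57.1 and 33.7 CPM (1.89 ± 0.435, adjusted p = 0.0467). That call was lost with DESeq2, without TMM factors (adjusted p = 0.109) and in 3 of the 4 fits with 1 library left out (adjusted p = 0.715 to 0.989). The highest *Fos* values belonged to AgRP-Gq;POMC-Gi library 1. In cluster 54, *Fos* had 0 UMIs in both control libraries, 29 UMIs in 11 of 37 nuclei of AgRP-Gq;POMC-Gi library 1 and 4 UMIs in 1 of 50 nuclei of library 2. The mean of the AgRP-Gq;POMC-Gi libraries was 9.91-fold the level of 3 counts over the control group. Library 1 alone was 18.3-fold and library 2 alone 1.52-fold that level, leaving out the counting error of their own UMIs. Library 2, at 27.4 CPM, was below the level of 3 counts in either control library alone (45.7 and 29.9 CPM). *Fos* was abundant enough for the test in cluster 54 only through AgRP-Gq;POMC-Gi, which held all 12 nuclei with a UMI of 149, so its call there is no support for a difference. It was called there (adjusted p = 8.37e-05), but not without AgRP-Gq;POMC-Gi library 1 (adjusted p = 0.955) not by DESeq2 (adjusted p = 0.9997) and not with the replicate number as a block (adjusted p = 0.999). All 10 calls of cluster 54, those of *Slc24a4* and *Nkain2* among them, were lost in each of these 3 fits, which gave 0 calls there. *Egr1* had 0 UMIs in the control libraries, 25 in AgRP-Gq;POMC-Gi library 1 and 0 in library 2 of the same cluster. *Fos* was also high in AgRP-Gq;POMC-Gi library 1 alone in cluster 48 (43.5, 68.7, 282 and 46.7 CPM) and cluster 20 (4.98, 6.62, 90.7 and 11.2 CPM).

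Oligodendrocytes and neurons of the same libraries were used to see where astrocytes stood apart. By the same test, none of 6646 genes was called in oligodendrocytes and none of 12115 in neurons. An unadjusted p under 0.05 was found for 629 and 667 of them, and for 875 of 8462 genes in astrocytes. The numbers of calls were not compared between cell types by a test. The test of the difference itself, an interaction of cell type and group with the library as a block, called 11 of 9106 genes (0.121%) between astrocytes and oligodendrocytes and 8 of 12686 genes (0.0631%) between astrocytes and neurons. *Fkbp5* was called in both. In oligodendrocytes it stood at 248 and 178 CPM against 47.9 and 72.8 CPM (log2 difference -1.78, adjusted p = 0.0704), and in neurons at 43.3 and 36.8 CPM against 27.4 and 27 CPM (-0.50, adjusted p = 0.810). The decrease in astrocytes was larger by 1.25 ± 0.154 than in oligodendrocytes (adjusted p = 0.0387) and by 2.52 ± 0.170 than in neurons (adjusted p = 3.10e-04). The difference from oligodendrocytes was not called without control library 1 (-1.16, adjusted p = 0.0925) or without AgRP-Gq;POMC-Gi library 1 (adjusted p = 0.134), and that from neurons was called with any library left out. Both AgRP-Gq;POMC-Gi libraries had less *Fkbp5* than both control libraries in 12 of the 14 annotated cell types. The share of all genes with that pattern was not counted in each type. The 12 include an immune type of 61 nuclei and the choroid plexus, with 2 nuclei in control library 1 and 6 in AgRP-Gq;POMC-Gi library 1. In fibroblasts, with 819 nuclei, it stood at 1296 and 1404 CPM against 643 and 513 CPM. In the tanycyte-like cells the groups overlapped. A lower level was thus not seen in astrocytes alone.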

How the data were processed

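Nuclei from 4 libraries, 2 per group, were analysed. The deposited files hold whole UMI counts per gene and nucleus, which the authors made with Cell Ranger 7.0.0 on GRCm38. In Seurat 4.3.0 they removed nuclei of low depth, few genes or high mitochondrial share and marked doublets. Cell types and clusters, made after training an scVI model, were copied from the deposited table and not computed again. Members and gene lists were chosen with earlier results of these data known.

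UMI counts were summed over astrocytes, or a cluster, per library. Genes detected in 5% or more of the nuclei concerned were tested with edgeR 4.0.16 in R 4.3.3 (quasi-likelihood test, TMM factors, Benjamini-Hochberg over all genes tested, call at 0.05), with DESeq2 1.42.0 as an alternative. The study's mixed model per cluster was not run. CPM are relative to summed UMIs without TMM factors. Differences between cell types were tested as an interaction with the library as a block. Shares were compared by exact two-sided permutation tests over libraries. Exact Clopper-Pearson intervals (95%) and the limit for a zero (3 counts) cover counting error only.

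Named genes were the 10 called genes with the largest log2 change per direction, the 3 called genes with the lowest p per cluster, the 5 genes with the highest ratio (plus 10 CPM) per cluster in at least 20% of its nuclei, the 5 genes most like *Gfap*, and list members. A gene that this rule would name is not reported here. *Gfap* in cluster 16, *Pde10a* in cluster 15 and the other called genes named were added after their values were seen. Of 8462 gene identifiers tested, 8457 were found in GENCODE M21, which gave coordinates. Promoters of 37 of the 53 called genes were in the RefSeq table. On simulated counts for 8462 genes, the astrocyte test called 60% of log2 changes of size 1 and 100% of size 2, with 5 false calls. The test of the difference from oligodendrocytes called 9% of size 1 and 83% of size 2, with 2 false calls. The simulated dispersion was the same for every gene and not estimated from these libraries, so these rates are not the power in these data.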

Additional observations from a re-analysis of the deposited data

Results flagged for a closer look

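A difference between cell types, by the test of the interaction itself, marked 19 results. In all of them the value is the log2 group difference in astrocytes minus that in the other type.

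Against oligodendrocytes, astrocytes were the more negative in *Fkbp5* (-1.25), *Capn2*, a calpain protease gene (-0.96), and *Garem1* (-0.77). The difference was positive for *Efhd1* (1.36), the kinase gene *Sgk3* (1.28), *9530077C05Rik* (1.22), the spermine oxidase gene *Smox* (1.07), *Arid5b* (0.98), *Phyhd1* (0.97), *Nt5dc3* (0.96) and the actin regulator *Enah* (0.88). Of these 8 positive genes, only *Efhd1* was called within astrocytes, and the others had log2 differences of -0.13 to 0.20 there and of -1.16 to -0.77 in oligodendrocytes, where none was called. None of the 11 was called without AgRP-Gq;POMC-Gi library 1 or without control library 1.

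Against neurons, astrocytes were the more negative in *Gm22146* (-2.54), *Fkbp5* (-2.52), *4930545L23Rik* (-1.58), *Slc24a4* (-1.50), *Prkcd* (-1.29), *Galnt18* (-0.98) and *Efr3b* (-0.93), and the more positive in *Slc38a1* (0.91). All 8 were called within astrocytes, where *Gm22146* passed the filter only through control. None of the 6 tested in neurons was called there. *Efr3b* was not called without control library 1 (adjusted p = 0.0547), and *Slc38a1* not without control library 2 (adjusted p = 0.0527).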

How the results depend on the processing

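The direction of the 53 astrocyte calls was kept with other scaling, another tool and each library left out. With a library left out this was largely fixed in advance, since their groups do not overlap. Without clusters 48 and 54 it was kept for 52 of them, and *Calcrl*, then under the filter, was not tested. Counts moved more. Of 53 calls, the count was 131 without TMM factors (34 higher, 97 lower, against 22 and 31), 65 with DESeq2 (40 of the 53), 305 with no filter on genes, 103 without cluster 52 and 102 with the same cluster make-up in every library (the alternatives on clusters were chosen after seeing the data), and 69 to 160 with a library left out. *Sgk1* and *Klf15*, not called over all astrocytes, were called with the same make-up (adjusted p 0.0322 and 0.0437). The 118 cluster calls became 271 without TMM factors, 24 with DESeq2, 268 with no filter and 47 to 285 with a library left out. The 11 differences from oligodendrocytes ranged from 0 (without AgRP-Gq;POMC-Gi library 1) to 117, and the 8 from neurons from 14 to 128. Non-overlapping cluster shares, 5 with all libraries, numbered 6 to 10 with a library left out, where a group is then 1 value. The astrocyte share differed by 0.0619 percentage points over all nuclei, -0.347 to 0.470 with a library left out, and 2.72 among nuclei that are not neurons. The 47 leading genes highest in their cluster ranged from 46 to 48. The cause of these shifts was not tested. With a library left out, the lone library of its group is assumed to vary like the others.

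Libraries share replicate numbers, but the labels name no shared batch, and with 2 pairs the correlation of same-numbered deviations (0.264) does not establish pairing. With a replicate block, 426 genes were called in astrocytes, all 53 among them, and 251 calls were made within clusters, but 0 in cluster 54, which had 10 without the block.

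Depth limits the small clusters, with 24 nuclei in the smallest library of clusters 52 and 54, and 2 libraries per group limit every test.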
